A study of Equus caballus with 2 samples.

Results

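The collagen receptors described here are the 4 integrin alpha subunits that bind native collagen, ITGA1, ITGA2, ITGA10 and ITGA11, and the 2 discoidin domain receptors, DDR1 and DDR2. They were chosen by gene symbol, and these 6 genes were found among the 21426 genes of the deposited counts. Equine endometrial fibroblasts of 4 mares, at passage 3, had been grown on hydrogels coated with rat type I collagen, so that a ligand of these receptors lay under the cells in both groups. In the last 24 h, the control group received medium with 0.1% BSA and nothing else, and the TGF-β1 group received human recombinant TGF-β1 at 10 ng/ml in the same medium. The mares had healthy or mildly fibrotic endometria, and their cells were pooled, so that each group is 1 library of mixed animals made with the 10x Genomics single cell 3' kit. The counts carry no label of the mare, and mares were not told apart here. With 1 library per group no test was made, and treatment and library preparation cannot be told apart.

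Integrins are pairs of an alpha and a beta chain in the plasma membrane, and the collagen-binding alpha chains all pair with the beta 1 chain, ITGB1. They hold the cell to collagen fibers and networks and link them through talin and kindlin to the actin cytoskeleton, and in fibroblasts they carry the pull with which cells contract a collagen matrix. The discoidin domain receptors are receptor tyrosine kinases that are switched on by the collagen triple helix itself. DDR1 is best known from epithelia and DDR2 from fibroblasts and other mesenchymal cells.

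A minimum of 20000 UMIs and of 3500 genes per cell and a limit of 4% on mitochondrial UMIs left 3865 control cells and 4513 TGF-β1 cells. A UMI is a molecular tag that counts a captured transcript once. The control library held 210497250 UMIs with a median of 50313 per cell, and the TGF-β1 library held 219731144 UMIs with a median of 43142 per cell. The 2 libraries shared 6 cell barcodes. All 9 fibroblast markers were found, and COL1A1, COL1A2, COL3A1 and VIM were detected in every kept cell of both libraries at equal depth. The 9 summed to 21715 CPM in the control and 21795 CPM after TGF-β1. The collagen chains and LUM were higher after TGF-β1, from 551 CPM and 564 CPM for LUM to 5608 CPM and 6376 CPM for COL1A1. DCN (2098 CPM and 1795 CPM) and the other 4 were lower, with VIM at 4399 CPM in the control and 2240 CPM after TGF-β1, THY1 at 215.5 CPM and 87.5 CPM, PDGFRB at 80.1 CPM and 49.0 CPM, and PDGFRA at 50.5 CPM and 16.7 CPM. Markers of other cell types were mostly at or near 0. EPCAM had 1 control UMI and 3 TGF-β1 UMIs, CDH1 had 6 and 4, PECAM1 had 9 and 8, and PTPRC had 1 and 0. Exceptions included the keratins KRT8 and KRT7, the macrophage genes CD68, with 42.6 CPM in the control and 43.1 CPM after TGF-β1, and CD14, with 14.0 CPM and 9.75 CPM, and the smooth muscle genes TAGLN, ACTA2, DES and CNN1, with CNN1 the lowest of the 4 at 193 CPM in the control and 453 CPM after TGF-β1. The 9 smooth muscle and pericyte markers summed to 9152 CPM in the control and 12909 CPM after TGF-β1. CPM is the number of UMIs per 1000000 UMIs of the library.

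Of the 6 receptors, ITGA2 was the one that was far higher in the TGF-β1 library, DDR1 was lower, ITGA1 was moderately higher, and ITGA11 and DDR2 were close to equal. ITGA10 was hardly detected in either library. Of the 5 receptors with a mean of at least 1 CPM, 2 differed more than 2-fold, ITGA2 upward and DDR1 downward, where 6.91% of the 12116 genes at that level did so, 3.45% upward and 3.46% downward. At a mean of at least 10 CPM were 2 receptors, ITGA1 and DDR2, and neither was past 2-fold, where 4.43% of 7658 genes were. The median log2 ratio of the 5 receptors was 0.07, against -0.01 over all 12116 genes. All intervals given are 95% intervals for counting error only. At this depth such intervals lay wholly above a ratio of 1 for 39.5% of the 12116 genes and wholly below it for 42.2%, so that an interval apart from 1 is common here.

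**Figure D1:**
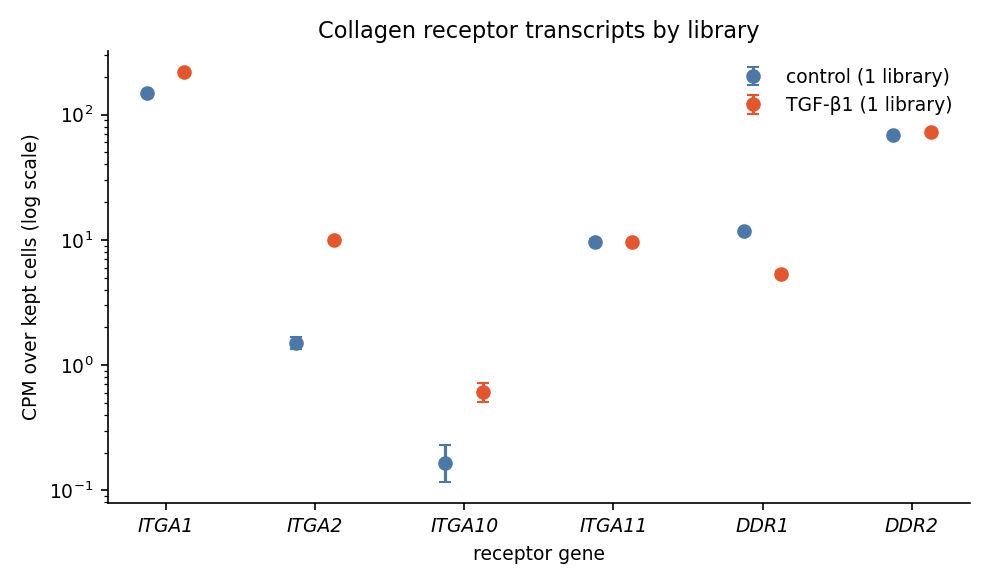
Level of each collagen receptor gene in the control and TGF-β1 libraries, in CPM over the kept cells on a log axis. Each point is 1 library and bars are exact Poisson 95% intervals, which are narrower than the points for abundant genes. ITGA2 lies 6.62-fold higher after TGF-β1, DDR1 lies 2.19-fold lower, and the points of ITGA11 and DDR2 lie side by side.

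ITGA1 (ENSECAG00000017386), the alpha chain of a receptor that favors network collagen such as type IV and also binds fibril collagens, was the most abundant of the 6. It had 31294 UMIs or 149 CPM in the control and 48311 UMIs or 219.9 CPM after TGF-β1. Log2 ratios are given as TGF-β1 against control, and that of ITGA1 was 0.56 (0.54 to 0.59), or 1.48-fold, and 92.0% of the genes tested had a lower ratio. ITGA1 was detected in most cells of both libraries, so the difference lay mainly in the number of UMIs per cell. When every cell was thinned at random to 20000 UMIs, 88.9% of control cells and 95.3% of TGF-β1 cells held at least 1 ITGA1 UMI, and the share with 3 or more was 49.2% in the control and 67.8% after TGF-β1. The median count per thinned cell was 2 in the control and 4 after TGF-β1. The gap in detection was 6.40 percentage points (Newcombe interval 5.24 to 7.58). Without thinning, 98.1% and 99.1% of cells were positive. ITGA1 is also expressed by smooth muscle cells. Of the smooth muscle and pericyte markers, TAGLN (4603 CPM and 7052 CPM), ACTA2 (3608 CPM and 4744 CPM), CNN1, RGS5 and CSPG4 were higher after TGF-β1, and DES (646 CPM and 569 CPM), MYH11 (42.9 CPM and 25.3 CPM), MCAM (5.78 CPM and 1.75 CPM) and NOTCH3 (0.200 CPM and 0.141 CPM) were lower. Their part in the ITGA1 difference was not tested.

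ITGA2 (ENSECAG00000010739), the alpha chain of a receptor that favors fibril collagens such as type I, had 315 UMIs or 1.496 CPM in the control and 2178 UMIs or 9.91 CPM after TGF-β1. It was among the genes with the highest ratios of the whole data set. Its log2 ratio was 2.73 (2.56 to 2.90), or 6.62-fold (5.88 to 7.48), and 99.7% of the tested genes had a lower ratio. The share of thinned cells with ITGA2 was 2.33% (exact binomial interval 1.88 to 2.85) in the control and 14.7% (13.6 to 15.7) after TGF-β1. The difference of 12.3 percentage points had an interval of 11.2 to 13.5. Without thinning the shares were 5.56% and 27.1%. Most positive cells held a single UMI in both libraries, 2.07% of all control cells and 11.9% of all TGF-β1 cells, so that a low count per cell went with more cells in which it was seen. At this depth a cell without a UMI of ITGA2 cannot be called a cell without the transcript.

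Some cells held many ITGA2 UMIs. In the control, 1 cell held 14 of the 315 UMIs. After TGF-β1 the 46 cells with the highest counts, 1% of the library, held 15.7% of all ITGA2 UMIs, and 67 cells had 5 or more. ITGA11 gives a comparison at nearly the same level in that library, 9.63 CPM, and there the top 1% of cells held 11.3% of UMIs and 34 cells had 5 or more. The largest ITGA2 count in a kept TGF-β1 cell was 18, and the largest ITGA11 count was 8.

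ITGA10 (ENSECAG00000008533), known best from cartilage cells, was the rarest receptor. It had 35 UMIs in the control, or 0.166 CPM, and 134 after TGF-β1, or 0.610 CPM. The log2 ratio was 1.87 (1.33 to 2.46), or 3.67-fold, but with a mean under 1 CPM the gene is not among the 12116 tested. Its UMIs lay in 0.310% of thinned control cells and 1.33% of thinned TGF-β1 cells, and unthinned in 0.906% and 2.70%. After the same thinning, genes of endothelial cells reached that range, up to 1.11% of control cells and 1.91% of TGF-β1 cells for CLDN5, although others were rarer, with PECAM1 in 0.0776% and 0.133%, EMCN in 0.724% and 0.0665%, and CDH5, with 3 UMIs and 2 UMIs before thinning, in 0 thinned cells of either library (exact binomial upper limits 0.0954% and 0.0817%). As these genes belong to cells not expected here, the shares of ITGA10 are not read as expression, and whether its UMIs are background was not tested.

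ITGA11 (ENSECAG00000023104), the alpha chain of a fibril collagen receptor of fibroblasts, had 2033 UMIs or 9.66 CPM in the control and 2115 UMIs or 9.63 CPM after TGF-β1. The log2 ratio was -0.0049 (-0.09 to 0.08). The thinned shares were 15.4% in each library, with a difference of 0.0313 percentage points (-1.52 to 1.58). The intervals leave room for differences of up to about these bounds from counting alone and do not show that the levels are alike between cultures. The even library totals covered unlike values among groups of cells, as described with the clusters.

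DDR1 (ENSECAG00000018474) had 2460 UMIs or 11.7 CPM in the control and 1175 UMIs or 5.35 CPM after TGF-β1. Its log2 ratio was -1.13 (-1.23 to -1.03), a 2.19-fold lower level, and 2.73% of the tested genes had a lower ratio. It was found in 19.5% of thinned control cells and 10.2% of thinned TGF-β1 cells, a difference of -9.29 percentage points (-10.8 to -7.77). Unthinned, 43.1% and 22.0% of cells were positive. Cells with 2 UMIs after thinning were rarer as well, 2.48% in the control and 0.665% after TGF-β1.

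Because DDR1 is known from epithelia, the epithelial markers were set beside it. The 9 epithelial markers found summed to 134 CPM in the control and 12.4 CPM after TGF-β1, with 6 of the 9 under 1% of thinned cells in both libraries, and nearly all of the sum was KRT8, with 114 CPM and 4.48 CPM, and KRT7, with 19.3 CPM and 7.04 CPM. EPCAM, CDH1, CLDN3 and ELF3 had at most 6 UMIs in either library. Among cells in which no KRT8 UMI was found after thinning, DDR1 was at 10.8 CPM over 2879 cells of the control and 5.51 CPM over 4363 cells of the TGF-β1 library, with a log2 ratio of -0.97 (-1.14 to -0.79). Among cells with KRT8 it was at 12.8 CPM in the control and 4.33 CPM after TGF-β1 (-1.57, -2.50 to -0.77). Inside the control, DDR1 in cells with KRT8 was 1.19-fold (1.03 to 1.38) the level of cells without it, and inside the TGF-β1 library 0.786-fold (0.416 to 1.36). As KRT8 itself differed between the libraries, these classes hold unlike shares of each, and the part of KRT8 cells in the DDR1 difference was not tested.

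DDR2 (ENSECAG00000010726), the discoidin domain receptor of mesenchymal cells, was the second receptor in level. It had 14515 UMIs or 69.0 CPM in the control and 15929 UMIs or 72.5 CPM after TGF-β1. The log2 ratio was 0.07 (0.04 to 0.10), or 1.05-fold. In the thinned cells 66.1% of the control and 69.0% of the TGF-β1 library held DDR2, a difference of 2.92 percentage points (0.910 to 4.93). This difference depended on the random draw. Another draw gave 0.342 percentage points, the expectation over all draws was 65.8% and 67.6%, and the unthinned shares, 88.0% and 86.6%, lay the other way.

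**Figure D2:**
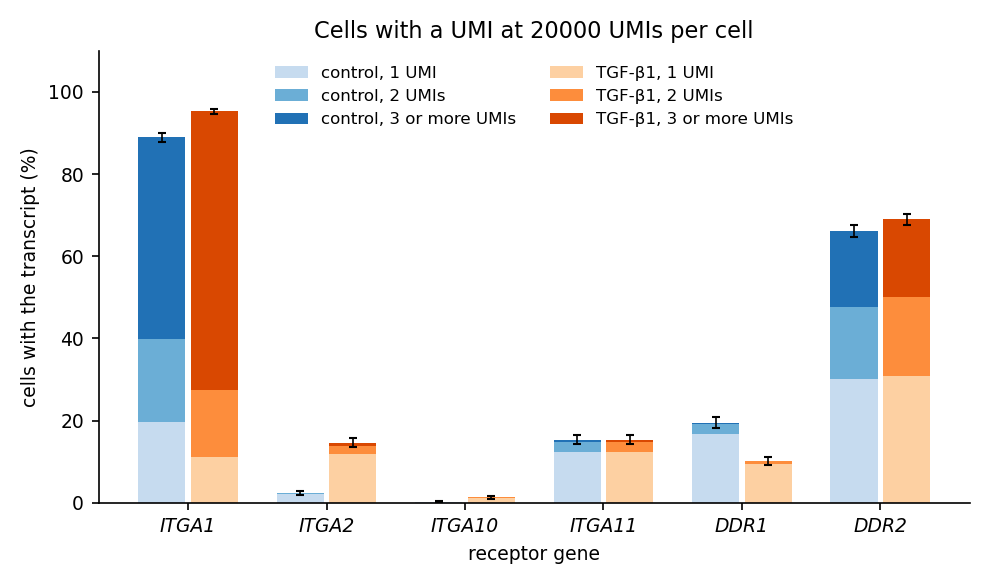
Share of cells of each library, in percent, that held each receptor transcript after every cell was thinned to 20000 UMIs, with 1, 2 and 3 or more UMIs stacked from light to dark. Black bars are exact binomial 95% intervals of the whole share. The ITGA1 bar gains in its darkest part after TGF-β1, the ITGA2 bar grows from 2.33% to 14.7%, and the DDR1 bar shrinks from 19.5% to 10.2%.

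Receptors were ordered within a library by UMIs without scaling by length, since a 3' UMI counts a captured molecule once. Capture may differ between genes, and whether intronic reads were counted is not given. An effect of gene length on the order was therefore not tested. In the control the order by UMIs was ITGA1, DDR2, DDR1, ITGA11, ITGA2 and ITGA10. All neighbors in this order were apart beyond counting error, with the closest pair, DDR1 over ITGA11, at 1.21-fold (1.14 to 1.28). After TGF-β1 the order was ITGA1, DDR2, ITGA2, ITGA11, DDR1 and ITGA10. ITGA2 had moved up beside ITGA11 and did not differ from it beyond counting error, at 1.03-fold (0.970 to 1.09), whereas DDR1 lay below both, with ITGA11 1.80-fold (1.68 to 1.93) above it.

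The make-up of the receptor pool shows the same values from another side, with the same limits. The 4 alpha subunits together had 160.0 CPM in the control and 240.0 CPM after TGF-β1. ITGA1 made up 92.9% of these UMIs in the control and 91.6% after TGF-β1, ITGA2 0.935% and 4.13%, and ITGA11 6.04% and 4.01%. ITGA11 thus took a smaller part of a larger pool while its own CPM was level. The 2 discoidin domain receptors together had 80.6 CPM and 77.8 CPM. DDR1 made up 14.5% (14.0 to 15.0) of this pool in the control and 6.87% (6.50 to 7.26) after TGF-β1, and the rest was DDR2.

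The common partner chain ITGB1 was more abundant than the 4 alpha subunits together. It had 709 CPM in the control and 915 CPM after TGF-β1, with a log2 ratio of 0.37 (0.36 to 0.38). ITGB1 also pairs with alpha chains that bind fibronectin and laminin, so its level is not a measure of collagen-binding pairs.

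To see how the receptors varied among cells, the cells were clustered anew, which gave 7 clusters with at least 50 cells of each library. They are called by number, because no cell type was assigned to them. Cluster 0 was led by EPHA6, NLGN1 and COL4A3, cluster 1 by CRABP2, DLK1 and IGFBP3, cluster 2 by FGF14, NPFFR2 and CA8, cluster 3 by SPP1, MATK and KRT7, cluster 4 by CFD, CRABP2 and COMP, cluster 5 by the cycling genes CENPF, CDC20 and ASPM, and cluster 6 by CA4, KRT1 and SUSD4. Cluster values are sums over cells of the same 2 libraries and are not replicates. The study reported a cluster made almost wholly of cells from a single mare. As mares were not told apart here, differences between clusters cannot be separated from differences between mares.

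ITGA2 was higher after TGF-β1 in all 7 clusters, by more than 2-fold in each, although the intervals of clusters 4 and 6 included 2-fold. As log2 ratios these were 0.91 to 3.39, from 8 and 32 UMIs, and 0.69 to 2.40, from 22 and 30 UMIs. The cluster log2 ratios ran from 1.53 in cluster 6 to 3.59 in cluster 5. Its highest levels after TGF-β1 were 14.8 CPM in both cluster 0 and cluster 5, and its lowest were 4.83 CPM in cluster 3 and 4.85 CPM in cluster 4. In the control, ITGA2 was between 0.579 CPM in cluster 3 and 3.94 CPM in cluster 6, with 22 UMIs behind the latter. The lowest TGF-β1 cluster value lay above the highest control value, but the interval of control cluster 6 (2.47 to 5.96) overlapped those of TGF-β1 clusters 3 (4.09 to 5.66) and 4 (3.32 to 6.85).

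ITGA1 was higher after TGF-β1 in all 7 clusters as well, with log2 ratios from 0.33 in cluster 4 to 1.00 in cluster 6. The control levels ran from 90.0 CPM in cluster 4 to 176 CPM in cluster 0, and the TGF-β1 levels from 113 CPM to 267 CPM in the same clusters. Here the ranges of the libraries overlapped, and the clusters of the control differed among themselves by more, 1.962-fold, than the libraries did. ITGB1 was higher in all 7 clusters, with log2 ratios from 0.25 to 0.49.

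DDR1 was lower after TGF-β1 in all 7 clusters, in 5 of them by more than 2-fold, with log2 ratios from -1.52 in cluster 4 to -0.84 in cluster 6. Only in cluster 2 was the interval wholly past 2-fold (-1.58 to -1.14). Its control levels ran from 9.39 CPM in cluster 5 to 13.9 CPM in cluster 4, and its TGF-β1 levels from 4.28 CPM in cluster 5 to 7.61 CPM in cluster 6. The ranges did not overlap, although the interval of TGF-β1 cluster 6 (4.65 to 11.8, from 20 UMIs) overlapped those of all control clusters but cluster 2. In the control DDR1 varied 1.48-fold across clusters, ITGA1 1.962-fold, DDR2 3.58-fold, ITGA11 5.90-fold and ITGA2 6.81-fold. Without cluster 6, the smallest, ITGA11 varied 2.68-fold and ITGA2 4.16-fold.

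DDR2 varied far more among clusters than between the libraries. It was lowest in cluster 4, with 25.1 CPM in the control and 21.1 CPM after TGF-β1, and highest in cluster 0, with 89.9 CPM and 95.6 CPM. Its log2 ratios within clusters stayed between -0.25 and 0.21. Of the 7 intervals, 3 lay above 0 and the others included 0.

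ITGA11 did not move in the same way in all clusters. In cluster 2, where the control level was highest, it was 16.9 CPM in the control and 12.8 CPM after TGF-β1, with a log2 ratio of -0.40 (-0.56 to -0.24). In cluster 3 it was 12.3 CPM and 8.67 CPM, with a log2 ratio of -0.50 (-0.72 to -0.29). In cluster 0 it was 6.30 CPM and 7.63 CPM (0.28, 0.08 to 0.47), in cluster 1 7.61 CPM and 9.44 CPM (0.31, 0.11 to 0.51), and in cluster 4 6.67 CPM and 11.2 CPM (0.75, 0.20 to 1.31). Cluster 6 gave 2.87 CPM and 7.61 CPM from only 16 and 20 UMIs (1.41, 0.39 to 2.45), and in cluster 5 the interval included 0 (0.36, -0.12 to 0.84). Across clusters ITGA11 varied 5.90-fold in the control and 1.69-fold after TGF-β1, and without cluster 6 2.68-fold and 1.68-fold. The difference between clusters was not tested.

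**Figure D3:**
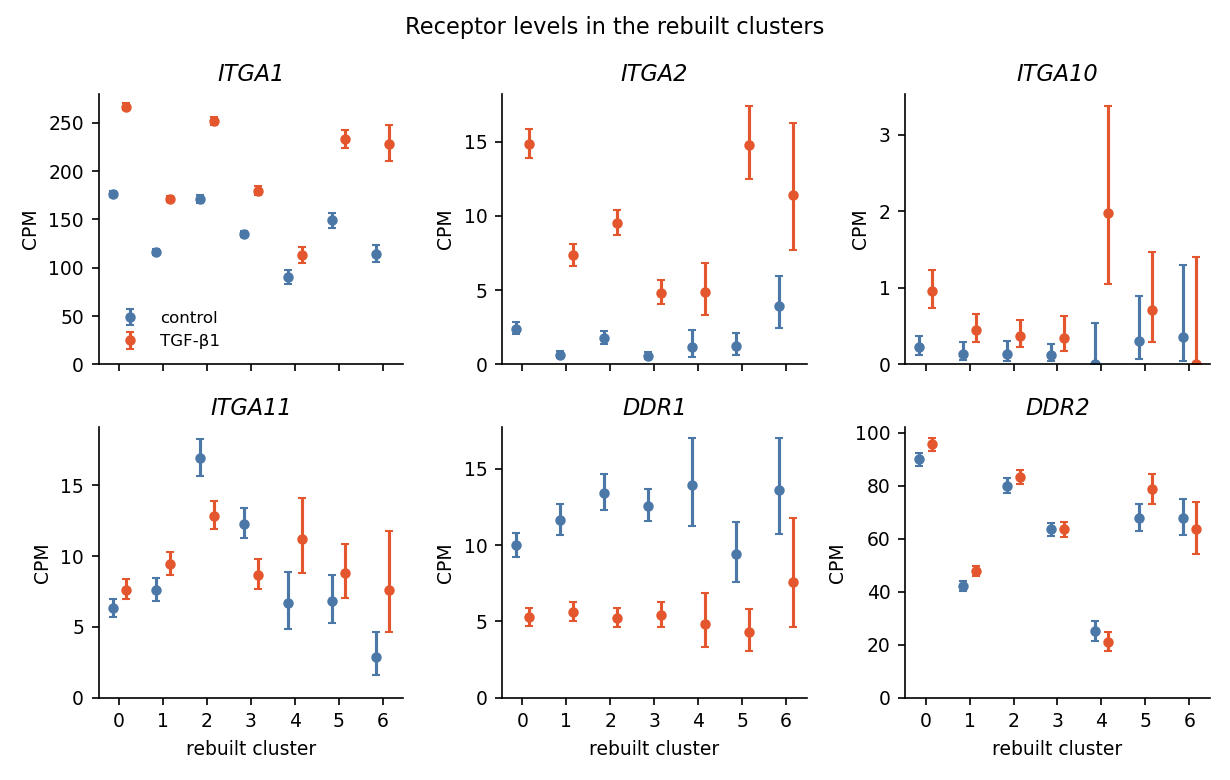
Level of each receptor, in CPM, in the 7 rebuilt clusters of the control and TGF-β1 libraries. Each point is the sum over the cells of a cluster in 1 library, with exact Poisson 95% intervals, and each panel has its own scale from 0. The TGF-β1 points of ITGA1 and ITGA2 lie above and those of DDR1 below the control point in every cluster, DDR2 follows the cluster, and ITGA11 points change places between clusters 2 and 3 and the others.

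ITGA10 passed 3 UMIs in each library in only 4 clusters, with log2 ratios from 1.48 to 2.11. In cluster 4 it had 0 control UMIs and 13 TGF-β1 UMIs, in cluster 5 it had 3 and 7, and in cluster 6 it had 2 and 0.

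The clusters also show which genes had a pattern most like each receptor. The measure was Pearson's r of log2(CPM + 1) over the 14 sums of clusters by library, after the mean of each library was taken off, among 7213 named genes whose mean was 10 CPM or more. The 14 sums come from only 2 libraries and differ in depth, so r is a description. ITGA1 was most like CTNNA1 (0.995), BCAT1 (0.984) and PAWR (0.983), and DDR2 most like EIF2AK3 (0.996), COP1 (0.996) and SMURF2 (0.995). ITGA11 was most like DSTN (0.917), an actin-depolymerizing protein, ACTG2 (0.875), the smooth muscle gamma actin, and EPHB6 (0.863). For ITGA2 the closest were ARHGAP18 (0.926), TNIP1 (0.908) and TMEM248 (0.907), and for DDR1 IL10RB (0.884), RNF170 (0.870) and SLC25A20 (0.869). Between the 5 receptors other than ITGA10 the highest value was that of ITGA1 and DDR2 (0.939), and the lowest that of ITGA2 and ITGA11 (-0.48).

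Receptor levels also varied with the number of UMIs in a cell. When the cells of each library were split into 3 equal groups by UMI total, ITGA1 ran from 123 CPM in the lowest group of the control over 143 CPM to 165 CPM in the highest, and from 182 CPM over 218 CPM to 239 CPM after TGF-β1. DDR2 ran from 58.2 CPM to 77.2 CPM in the control and from 56.2 CPM to 80.5 CPM after TGF-β1, whereas DDR1 stayed between 11.7 CPM and 11.8 CPM in the control. Within these groups the log2 ratios of ITGA1, ITGA2 and DDR1 kept their direction. From the lowest to the highest group they were 0.56, 0.61 and 0.53 for ITGA1, 3.09, 2.69 and 2.61 for ITGA2, and -1.23, -1.13 and -1.08 for DDR1. For ITGA11 they were 0.16, -0.17 and 0.02, for DDR2 -0.05, 0.15 and 0.06, and for ITGA10, on few UMIs, 3.53, 1.95 and 1.16.

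In cells with and without KRT8, IGFBP3, AREG or cycling markers, some receptors differed inside a library. These CPM and UMIs, like those given for cells with and without KRT8 above, are of the thinned cells, and are not on the same footing as the library values. ITGA1 after TGF-β1 was 0.843-fold (0.773 to 0.919) in cells with KRT8 and 0.915-fold (0.884 to 0.947) with AREG. It was 1.07-fold (1.04 to 1.10) with IGFBP3 and 1.12-fold (1.01 to 1.24) with cycling markers. In the control ITGA1 was 0.952-fold (0.912 to 0.994) with KRT8, and its other intervals included 1. After TGF-β1, ITGA2 was 11.5 CPM in the 1802 cells with an IGFBP3 UMI and 8.13 CPM in the 2711 without, or 1.42-fold (1.24 to 1.62), and it was 8.26 CPM in the 1035 cells with AREG and 9.85 CPM in those without, or 0.839-fold (0.705 to 0.993). ITGA11 was 1.60-fold (1.16 to 2.16) higher in the 150 TGF-β1 cells with KRT8, whereas in the 986 control cells with KRT8 the value was 1.07-fold (0.905 to 1.26). ITGA2 was 0.519-fold (0.285 to 0.890) in those control cells, from 16 UMIs after thinning, and 0.875-fold (0.563 to 1.30) in the TGF-β1 cells with KRT8. After TGF-β1 DDR2 was 1.23-fold (1.03 to 1.45) higher in the 81 cells with at least 3 cycling markers, and in the control 1.06-fold (0.866 to 1.28) in 75 cells. The cells with cycling markers held more UMIs, with a median of 60708 against 42996.5 after TGF-β1 and 73668 against 50142 in the control. DDR2 was higher in cells with more UMIs, and the part of this in the values of cycling cells was not tested.

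The pairs of receptors found in single cells were set beside the product of their shares. For pairs with ITGA1, which was in nearly all cells, the product is close to fixed and they are not given. After TGF-β1, 7.002% of thinned cells held both DDR1 and DDR2, where the product is 7.03%. ITGA2 and ITGA11, which were about equal in level there, were found together in 97 of 4513 cells or 2.15%, against a product of 2.26%. In the control that pair was found in 20 of 3865 cells, 1.45 times the product, and the interval of the observed share, 0.316% to 0.798%, included the product of 0.358%. Thinned cells held a median of 2 of the 6 receptors in both libraries. No receptor was detected in 3.16% of control cells and 1.13% of TGF-β1 cells.

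The other genes of collagen adhesion were read from lists, by the number of members higher and lower after TGF-β1 among those whose mean was 1 CPM or more. Of all 12116 genes at that level, 48.7% were higher and 6.91% were past 2-fold, and a count near these shares is no result about a list. Of 22 other integrin subunits, 21 were found and 14 were at that level, 8 higher and 6 lower, with a median log2 ratio of 0.16. ITGA5, the alpha chain of the main fibronectin receptor, went from 63.0 CPM to 126 CPM (1.00), and ITGB3, a beta chain of vitronectin receptors, from 6.31 CPM to 16.6 CPM (1.39). ITGB8, a beta chain of an integrin that binds latent TGF-β, went from 15.8 CPM to 4.74 CPM (-1.73). These were the 3 members past 2-fold, although ITGA5 lay at the limit (0.97 to 1.03) and fell under it, at 0.995, when scaled by the median of ratios, and ITGA2 had a higher ratio than any of the 14.

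Of 22 integrin activation and adaptor genes, 21 were found and 19 were at 1 CPM, with 10 higher, 9 lower, none past 2-fold and a median log2 ratio of 0.0069. TNS1, a tensin of fibrillar adhesions, had the largest rise in ratio, from 39.7 CPM to 57.5 CPM (0.53), and PXN, the adaptor paxillin, the largest fall, from 16.9 CPM to 10.9 CPM (-0.64), among those with a mean of at least 10 CPM. Of 22 adhesion and DDR signaling genes, 20 were found and all 20 were at 1 CPM, 12 higher and 8 lower, with a median of 0.08. PTK2, the focal adhesion kinase, went from 87.3 CPM to 133 CPM (0.61), and CSK, the kinase that restrains SRC, from 16.4 CPM to 12.4 CPM (-0.41). VAV3, a gene with a mean under 10 CPM that was picked after its value was seen, was the only member of these lists past 2-fold, with a log2 ratio of 1.18.

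Among proteases linked to discoidin domain receptors, 5 of 6 genes were found and 4 were at 1 CPM, with 2 higher, 2 lower and a median of 0.18. MMP2, a gelatinase, went from 276 CPM to 367 CPM (0.41), and ADAM10, which can shed DDR1, from 37.6 CPM to 33.8 CPM (-0.15). MMP1, a collagenase, was past 2-fold at 2.27 CPM and 7.38 CPM, and was likewise picked after its value was seen.

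Of 12 other collagen receptors, 11 were found and 6 were at 1 CPM, with 3 higher, 3 lower and a median of -0.03. MRC2, which takes up collagen for breakdown in the cell, went from 104.5 CPM to 163 CPM (0.64), and CD248, a surface protein of stromal cells, from 147 CPM to 51.6 CPM (-1.51), the only member past 2-fold. The fibril collagen chains, ligands of these receptors, were all 9 found, and 7 were at 1 CPM with 6 higher, 1 lower and a median of 0.25. COL5A1 had the largest ratio, from 270.3 CPM to 402 CPM (0.57), and COL1A1 the smallest among those with a mean of at least 10 CPM, from 5608 CPM to 6376 CPM (0.19). The lower chain, COL5A3, was at 3.09 CPM and 0.947 CPM, past 2-fold, and was picked after its value was seen.

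**Figure D4:**
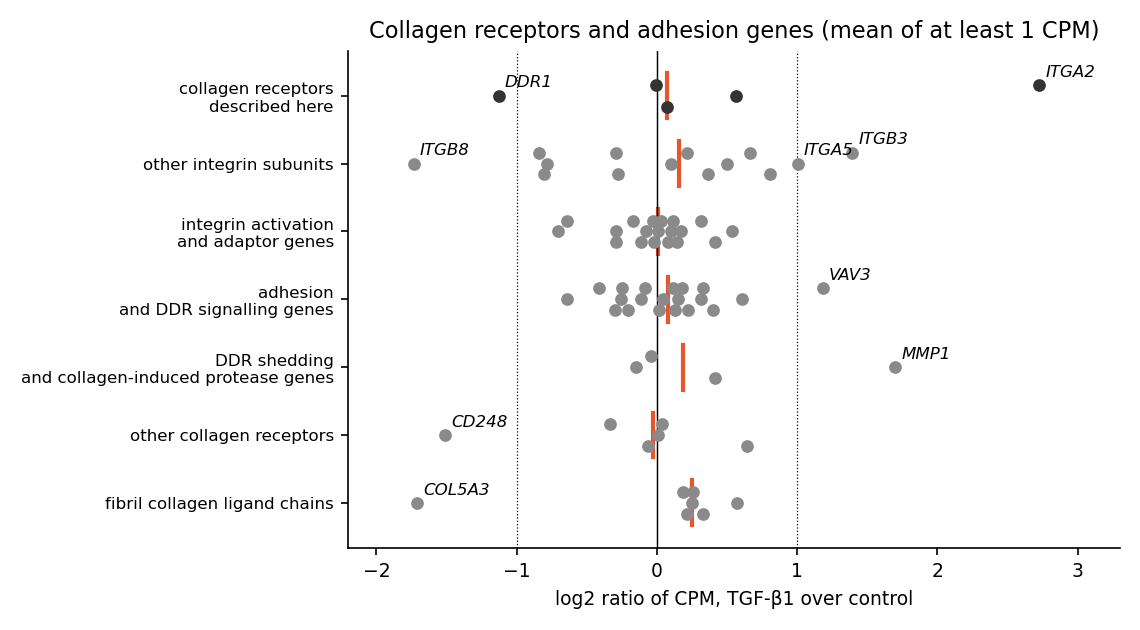
Log2 ratio of CPM, TGF-β1 over control, of the collagen receptors and of the other adhesion lists, at a mean of 1 CPM or more. Each point is a gene, red lines are medians, points are shifted up and down only for sight, dotted lines mark 2-fold, and genes past 2-fold are named. ITGA2 lies farther to the right than any other gene shown, and most genes of the adaptor and signaling lists lie between the dotted lines.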

How the data were processed

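The authors made the deposited counts, UMI counts per gene and barcode, with Cell Ranger (7.1.0 in the methods and the processing notes, 8.0.1 in the file headers) against EquCab3.0 and the Ensembl annotation. Whether intronic reads were counted is not given in the sources used here. The notes also name Seurat 5 and edgeR 4.2.2. The cell filters are those of the study and had not been applied to the deposited barcodes, 4384 and 5124, of which 88.2% and 88.1% passed. The doublets that the study removed from its reads were not removed here.

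UMIs of kept cells were summed per library, cluster or group by UMI total and scaled to CPM (Python 3.11.15; scipy 1.17.1, pandas 2.3.3, numpy 2.4.6). Log2 ratios are without a pseudocount, with exact binomial (Clopper-Pearson) intervals. A ratio needed over 3 UMIs in a library, and within a cluster over 3 in each. For shares, and for the levels in cells with and without KRT8, IGFBP3, AREG or cycling markers, cells were thinned without replacement to 20000 UMIs. The script was tested on simulated data. Cells were clustered anew in R 4.3.3 with Seurat 5.3.0 and SeuratObject 5.2.0 (log-normalized counts, the 2000 most variable genes, integration by canonical correlation on 30 dimensions, resolution 0.5) and were not matched to the study's clusters. Figures were drawn in matplotlib 3.10.9.

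The receptors, lists and tests were chosen with earlier results of these data known, so that none of them is independent support. Named from the lists were ITGB1, the genes past 2-fold whose mean was 10 CPM or more, and the largest rise and fall at that mean. Not found by symbol were ITGAV, PARVG, NCK1, CRKL, MMP10 and LAIR1, and 5196 genes carry no symbol. The genome build of the reference table used for gene neighbors, TB-T2T, differs from EquCab3.0, so no coordinates or sequences are given. In it PELO lies inside ITGA1, and as no row of the counts has that symbol, reads of PELO could be counted as ITGA1. The in situ hybridization and the cells given MFGE8 were not used here.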

Additional observations from a re-analysis of the deposited data

Results flagged for a closer look

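The barcodes that did not pass the cell filters, 519 in the control and 611 in the TGF-β1 library, belong to no comparison above. ITGA1 reached 432 CPM in those of the TGF-β1 library, against 243 CPM in those of the control, and ITGA2 reached 52.5 CPM against 2.91 CPM. Both values were also above those of the kept TGF-β1 cells, 219.9 CPM and 9.91 CPM. This was not particular to them. DDR2 had 137 CPM in the excluded control barcodes and 152 CPM in those of TGF-β1, against 69.0 CPM and 72.5 CPM in kept cells. DDR1 was likewise higher in both libraries. ITGA11 was higher in the control (14.8 CPM against 9.66 CPM) but lower after TGF-β1 (8.75 CPM against 9.63 CPM). Many of the excluded ITGA2 UMIs lay in few barcodes. The 446 excluded TGF-β1 barcodes with 4% or more mitochondrial UMIs held 211 ITGA2 UMIs in 38 barcodes, and a single barcode held 91 of them, or 43.1%. No kept cell of either library had more than 18. The 165 excluded TGF-β1 barcodes with under 4% had 23 ITGA2 UMIs, or 15.7 CPM (9.98 to 23.6). For ITGA1 the 446 barcodes had 504 CPM, with at most 56 UMIs or 3.70% in a single barcode.

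ITGA11 was marked because its ratio took opposite directions among the rebuilt clusters. The log2 ratio was 1.41 in cluster 6 and -0.50 in cluster 3, and this difference was not tested. Intervals for counting error lay above 0 in 4 clusters and below 0 in 2. With resolution 0.3 they lay above 0 in 2 of 5 clusters and below in 2, and with resolution 0.8 above in 4 of 10 and below in 3.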

How the results depend on the processing

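The log2 ratio of each receptor moved little over 8 alternatives (all barcodes, other UMI and mitochondrial limits, the cells with the most UMIs removed, another scaling, means of single-cell CPM, mitochondrial genes left out, standardized cluster shares). The ranges were 0.56 to 0.58 for ITGA1, 2.72 to 2.82 for ITGA2, 1.85 to 2.10 for ITGA10, -0.05 to 0.01 for ITGA11, -1.15 to -1.12 for DDR1 and 0.06 to 0.10 for DDR2, and none reversed a receptor that differed. The number of receptors past 2-fold was 2, but 3 with no minimum level, where ITGA10 is added, and 0 with a mean of at least 10 CPM, because ITGA2 and DDR1 have lower means.

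The differences in share depended on depth. Without thinning they were 1.05 percentage points for ITGA1, 21.5 for ITGA2, 1.80 for ITGA10, -2.15 for ITGA11, -21.1 for DDR1 and -1.43 for DDR2. Thinned to 30000 UMIs they were 2.93 for ITGA1, 15.6 for ITGA2 and -13.2 for DDR1. Another random draw gave 0.342 for DDR2. The expectation over all draws was added after the data were seen. Without integration only 1 cluster had 50 cells of each library, with log2 ratios of 0.80 for ITGA1, -0.88 for DDR1 and 0.78 for ITGA11, whose median over the main clusters was 0.31.

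No paired analysis was possible because the counts carry no label of the mare and each group has 1 library, and no replicate was left out. The spread between mares and cultures is not measured here, and low counts limit ITGA10 and the smaller clusters.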
